A study of Bos taurus with 13 samples.

Results

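The genes described here are 6 genes of the extracellular matrix printed on a bovine mammary cDNA microarray: the collagen genes COL5A2, COL6A1, COL6A2 and COL15A1, the laminin gene LAMC1 and the nidogen gene NID1. They were chosen by gene symbol in the platform's annotation. 21 of the 3888 spots carry them, as 7 cDNAs of 3 spots each, and COL15A1 has 2 cDNAs. All 6 genes kept a value after the filter on spots, among 703 of 706 genes with 1 symbol. The study hybridised 13 two-colour arrays. On 8 arrays RNA of the BovMac cell line shared the slide with 1 tissue each: prepubertal mammary gland of a 136 kg Holstein heifer, ileum, spleen, thymus, lymph tissue, liver, adrenal tissue or adipose tissue. On 2 arrays lactating gland was compared with prepubertal gland, from a Holstein heifer of 136 kg for array 1 and of 227 kg for array 2. 1 array paired a postpubertal gland (310 kg heifer) with a prepubertal gland (136 kg heifer), and 2 arrays set the cell line against itself (spelled BovMav for the first). The labels give no age, no stage of lactation, no genotype and no number of animals in an RNA, and nothing in them says that the lactating RNA of the 2 arrays came from different cows.

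Collagens are built of 3 chains wound into a triple helix. The type V chain encoded by COL5A2 enters fibrils together with type I collagen and helps to set their diameter. COL6A1 and COL6A2 encode chains that join with a further chain to form type VI collagen, whose beaded filaments lie between basement membranes and the fibrils of the stroma. Type XV collagen, from COL15A1, sits in the basement membrane zone of many epithelia, vessels, muscle and fat. LAMC1 encodes the gamma chain shared by most laminins, the first network of a basement membrane, and NID1 encodes nidogen, which binds that gamma chain and collagen IV and so ties both networks together. In the mammary gland a basement membrane surrounds the ducts and alveoli, and the fibrous stroma lies outside it.

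Each value is a log ratio per spot whose base the sources used here do not give, and no fold changes are given. Ratios of a cDNA are means over its spots, with arrays centred on their median. The sign is that of the deposited ratio. On the lactating arrays the casein gene CSN1S1 lay at 1.61 on array 1 and 2.56 on array 2, and CSN2 at 0.76 and 0.79, and both passed the test described later. The other casein genes changed sign and did not pass, CSN1S2 at -0.19 and 0.39 and CSN3 at 0.98 and -0.16. Of 7 milk and secretory genes 5 were positive on both arrays. On this basis positive ratios are called the casein side, which is likely, but not certainly, the side of higher abundance during lactation. On the tissue arrays the direction is not settled, and with the sign turned positive and negative trade places throughout. The labels put each tissue in channel 2 and the lactating RNA in channel 1. They do not say which channel is the numerator. 0 of 28 pairs of tissue arrays correlated below -0.3 over spots. Of the markers of the labelled tissues, 7 of 8 genes of mammary secretory epithelium, 4 of 4 leukocyte genes and 3 of 8 hepatocyte genes were measured, against 0 of 8 fibroblast, 0 of 5 adipocyte, 0 of 6 adrenal, 0 of 5 ileum and 0 of 6 T cell and thymus genes, so most labels could not be checked. On the liver array the hepatocyte genes did not share a sign, with C3 at -1.10, A2M at -0.27 and FGG at 0.21. FGG had its highest ratio in mammary gland (0.44), so these genes did not bear out the liver label. The leukocyte genes had mixed signs in spleen, with CD74 at 0.19, PTPRC at -0.09, LCP1 at -0.34 and RAC2 at -0.47. In the same order lymph tissue gave 0.48, -0.10, -0.35 and -0.27, and thymus 0.08, 0.06, -0.17 and -0.29. These ratios are relative to the BovMac line, whose own level of these genes is not known here. The leukocyte genes could therefore neither bear out nor contradict these labels. The cell line against itself gave 6 genes at least 1 log unit from 0 on array 1 and 27 on array 2, and array 2 had 373 spots at exact 0 against 124 to 207 on the other arrays.

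On the tissue arrays the ratios farthest from 0 among the 7 cDNAs were those of COL15A1 cDNA 1 and COL5A2 in ileum. The ranges of the 5 collagen cDNAs, 0.47 to 1.35 log units, were wider than those of LAMC1 (0.25) and NID1 (0.37), but relative to the spot spread COL6A1 did not vary more: the SD over tissues was 1.04 times the pooled SD over spots for COL6A1, 1.78 times for LAMC1 and 1.60 times for NID1. COL15A1 cDNA 1 and COL5A2 had their most negative ratios in ileum, COL6A2 ran from its most positive ratio in spleen to its most negative in adrenal tissue, and LAMC1 and NID1 stayed between -0.19 and 0.24 on every tissue array. 0 of the 6 genes were positive on at least 7 of the 8 tissue arrays, against 14.2% of all genes. In whole tissues, a difference in the cells present and a difference in RNA per cell cannot be told apart. There was 1 array per tissue, so these values carry the SD over 3 spots, which is technical, and no test.

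**Figure D1:**
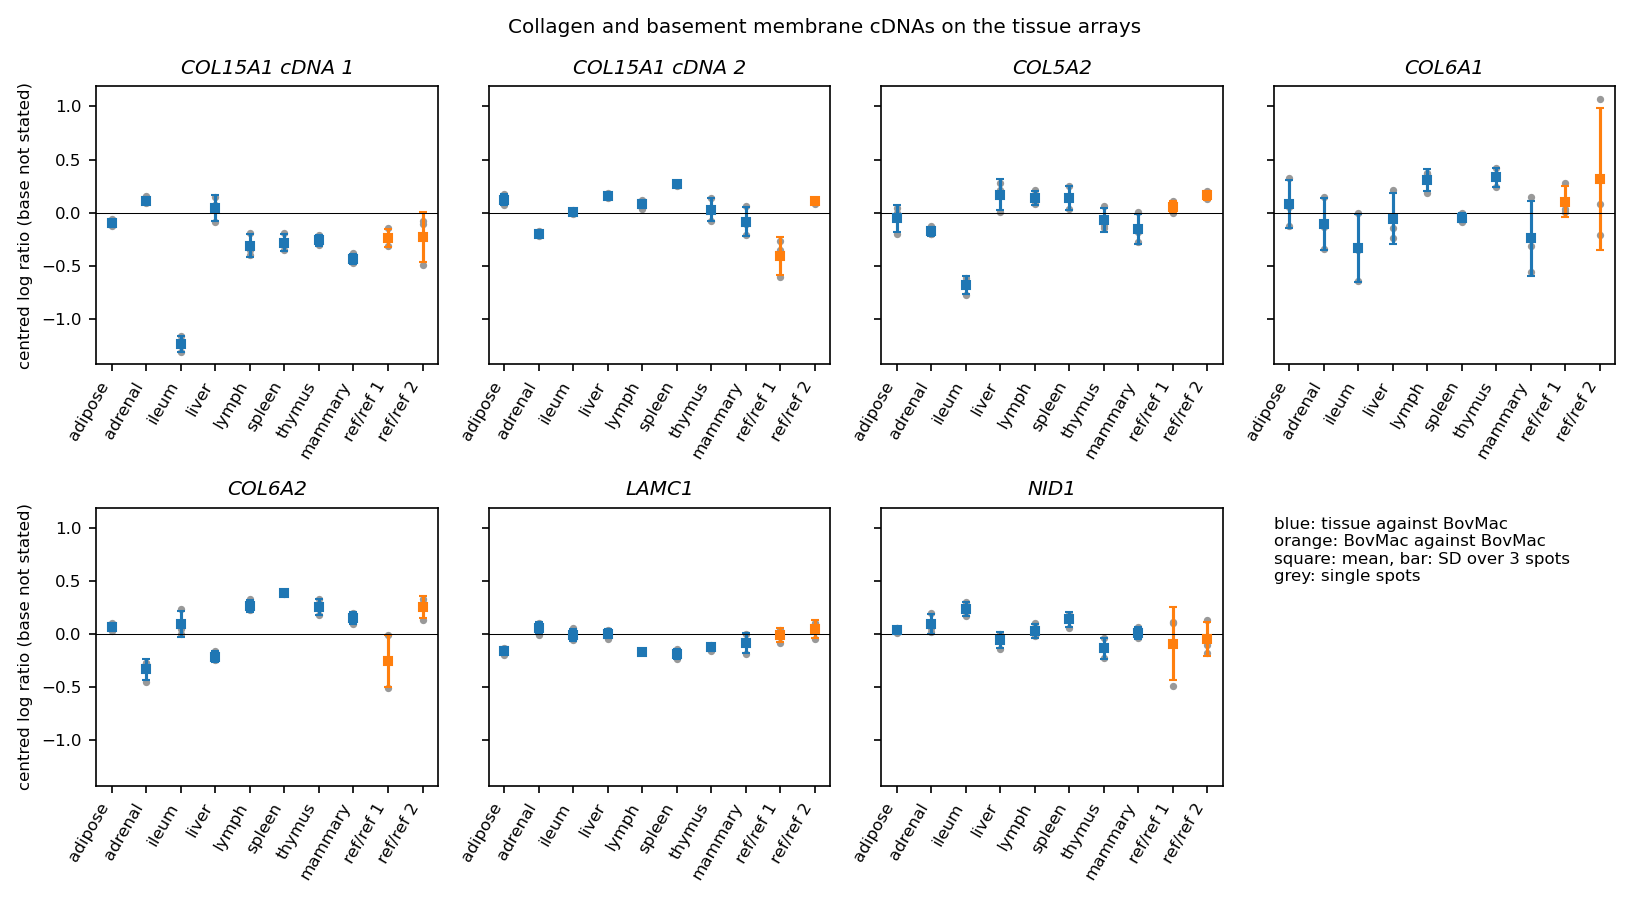
Centred log ratios (vertical axis, base not stated) of the 7 cDNAs on the 8 tissue arrays (blue) and on the 2 arrays of BovMac against itself (orange), with single spots in grey, means as squares and the SD over spots as bars. COL15A1 cDNA 1 and COL5A2 have their most negative ratios in ileum, while LAMC1 and NID1 stay close to 0 on all arrays.

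COL15A1, the gene of type XV collagen, gave 2 different pictures. Its cDNA 1 lay at -1.23 ± 0.07 (SD, 3 spots) in ileum, with single spots between -1.31 and -1.16. It lay at -0.44 ± 0.05 in mammary gland, -0.31 ± 0.11 in lymph tissue, -0.28 ± 0.08 in spleen, -0.26 ± 0.05 in thymus, -0.10 ± 0.04 in adipose tissue, 0.04 ± 0.12 in liver and 0.11 ± 0.03 in adrenal tissue. Ileum stood 0.80 below mammary gland, the next tissue, while lymph tissue, spleen and thymus did not differ beyond their spot spread. The cell line against itself gave -0.24 and -0.23 for this cDNA, so lymph tissue, spleen and thymus lay close to what the same RNA in both channels gave. In ileum 1.41% of 779 cDNAs were more negative, and 6.42% lay at least 1 log unit from 0 in either direction. On the mammary gland array 1.41% of 781 cDNAs were more negative, so by rank on its own array ileum was not more extreme.

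The second COL15A1 cDNA did not follow the first. It lay at 0.01 ± 0.02 in ileum, and its extremes were spleen at 0.27 ± 0.02 and adrenal tissue at -0.20 ± 0.03. Between them came liver at 0.16, adipose tissue at 0.12, lymph tissue at 0.08, thymus at 0.03 and mammary gland at -0.08, of which no neighbours from liver down to adrenal tissue differed beyond their spot spread. Over the 8 arrays the cDNAs of COL15A1 correlated at r = 0.02 (Pearson) and rho = 0.12 (Spearman), and they shared a sign on 2 arrays. On reference against reference array 1 cDNA 2 lay at -0.41 ± 0.18, farther from 0 than on any tissue array, and on array 2 at 0.11. A mean of both cDNAs, -0.61 in ileum, therefore described neither.

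COL5A2 also had its most negative ratio in ileum, at -0.68 ± 0.09, with spots between -0.78 and -0.61. The other tissues ran from -0.18 ± 0.04 in adrenal tissue and -0.15 ± 0.14 in mammary gland through -0.07 in thymus and -0.05 in adipose tissue to 0.14 in spleen and in lymph tissue and 0.17 ± 0.14 in liver. Ileum stood 0.50 below adrenal tissue, and 5 of the 7 steps in this order were within the spot spread. The cell line against itself gave 0.06 and 0.16, which is close to the ratios of liver, lymph tissue and spleen and far from that of ileum. 5.52% of cDNAs were more negative than COL5A2 in ileum.

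The ileum array differed from the others in more than these genes. POSTN, which encodes the matrix protein periostin, lay at -1.52 there, with its 2 cDNAs at -1.81 and -1.23. The leukocyte genes lay at 2.41 (CD74), 0.85 (RAC2), 0.50 (PTPRC) and 0.10 (LCP1). The epithelial genes lay at 1.94 (EPCAM), 0.72 (ELF5) and 0.06 (KRT7), but EPCAM also lay at 1.51 on reference against reference array 2. The smooth muscle genes ACTG2 and MYH11 lay at 0.04 and 0.28, and the endothelial gene EMCN at 0.39. The SD over cDNAs was 0.52 on the ileum array and 0.15 to 0.26 on the other tissue arrays. The part of these other differences in the collagen values was not tested.

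COL6A2, a chain of type VI collagen, had the widest range of the 7 cDNAs outside ileum. It lay at 0.39 ± 0.01 in spleen, 0.27 ± 0.06 in lymph tissue, 0.26 ± 0.08 in thymus and 0.15 ± 0.06 in mammary gland. Its ratios were 0.09 ± 0.12 in ileum and 0.07 ± 0.03 in adipose tissue, and -0.21 ± 0.05 in liver and -0.33 ± 0.10 in adrenal tissue. Spleen, lymph tissue and thymus, 3 lymphoid organs, thus had the 3 most positive ratios, and liver and adrenal tissue stood apart on the negative side by 0.28, beyond the spot spread. On the cell line against itself COL6A2 lay at -0.25 ± 0.25 and 0.26 ± 0.11. Only spleen, lymph tissue, thymus and adrenal tissue exceeded both of these in size. For lymph tissue (0.268), thymus (0.258) and adrenal tissue (-0.332) the excess over the larger of them (0.255) was smaller than their own SD over spots.

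COL6A1 had the least precise spots of the 6 genes, with a pooled SD over spots of 0.23 against 0.05 to 0.11 for the other cDNAs. It lay at 0.33 ± 0.09 in thymus, 0.31 ± 0.11 in lymph tissue, 0.08 ± 0.23 in adipose tissue and -0.05 ± 0.05 in spleen. Below these came liver at -0.06 ± 0.24, adrenal tissue at -0.11 ± 0.25, mammary gland at -0.24 ± 0.36 and ileum at -0.33 ± 0.32. All 7 steps in this order were within the spot spread, and reference against reference array 2 gave 0.32 ± 0.67. Its SD over tissues without ileum was 0.94 times the SD over spots pooled over all 8 tissue arrays, ileum included. That pooled SD is a spread of single spots and not of their means. Even so, all spots in thymus (0.24 to 0.42) and lymph tissue (0.18 to 0.37) lay above those in spleen (-0.09 to 0.0008). COL6A1 and COL6A2 shared a sign on 5 of 8 arrays, with r at 0.35 and rho at 0.43.

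LAMC1 had the narrowest range, 0.25 log units, smaller than that of all but 3.88% of the 773 cDNAs with 8 tissue values. It lay at 0.06 ± 0.06 in adrenal tissue, 0.0049 ± 0.04 in liver, -0.0054 ± 0.06 in ileum, -0.08 ± 0.09 in mammary gland and -0.12 ± 0.03 in thymus. Adipose tissue lay at -0.16 ± 0.03, lymph tissue at -0.17 ± 0.01 and spleen at -0.19 ± 0.05. The cell line against itself gave -0.0057 and 0.05, so 6 tissues exceeded both in size although the differences were small. With arrays scaled to the same median absolute deviation (MAD) its range was 0.39 and that of NID1 0.31, so NID1 was then the narrowest.

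NID1 ranged over 0.37 log units. Ileum had its most positive ratio, 0.24 ± 0.07, followed by spleen at 0.14 ± 0.07, adrenal tissue at 0.09 ± 0.09, adipose tissue at 0.04, lymph tissue at 0.03, mammary gland at 0.0087, liver at -0.05 and thymus at -0.13 ± 0.09. Only the step from ileum to spleen exceeded the spot spread. NID1 and LAMC1, whose proteins bind each other, shared a sign on 2 of the 8 arrays, with r at 0.15 and rho at -0.07.

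Against the whole platform, the ranges of the 7 cDNAs had a median of 0.66 log units with ileum and 0.47 without it, beside 0.53 and 0.43 over all cDNAs. COL15A1 cDNA 1 had a range of 1.35 with ileum, larger than 94.6% of cDNAs, and 0.55 without it, larger than 72.8%. COL5A2 went the same way, with 0.85 and 84.6% against 0.35 and 26.4%. COL6A2 kept its range of 0.72 without ileum, which was then larger than 89.0% of cDNAs. Of the 56 values of 7 cDNAs on 8 tissue arrays, 24 were larger in size than both values of the cell line against itself, beside 28% of such values over all cDNAs, and in ileum it was 4 of 7 beside 43.9%.

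**Figure D2:**
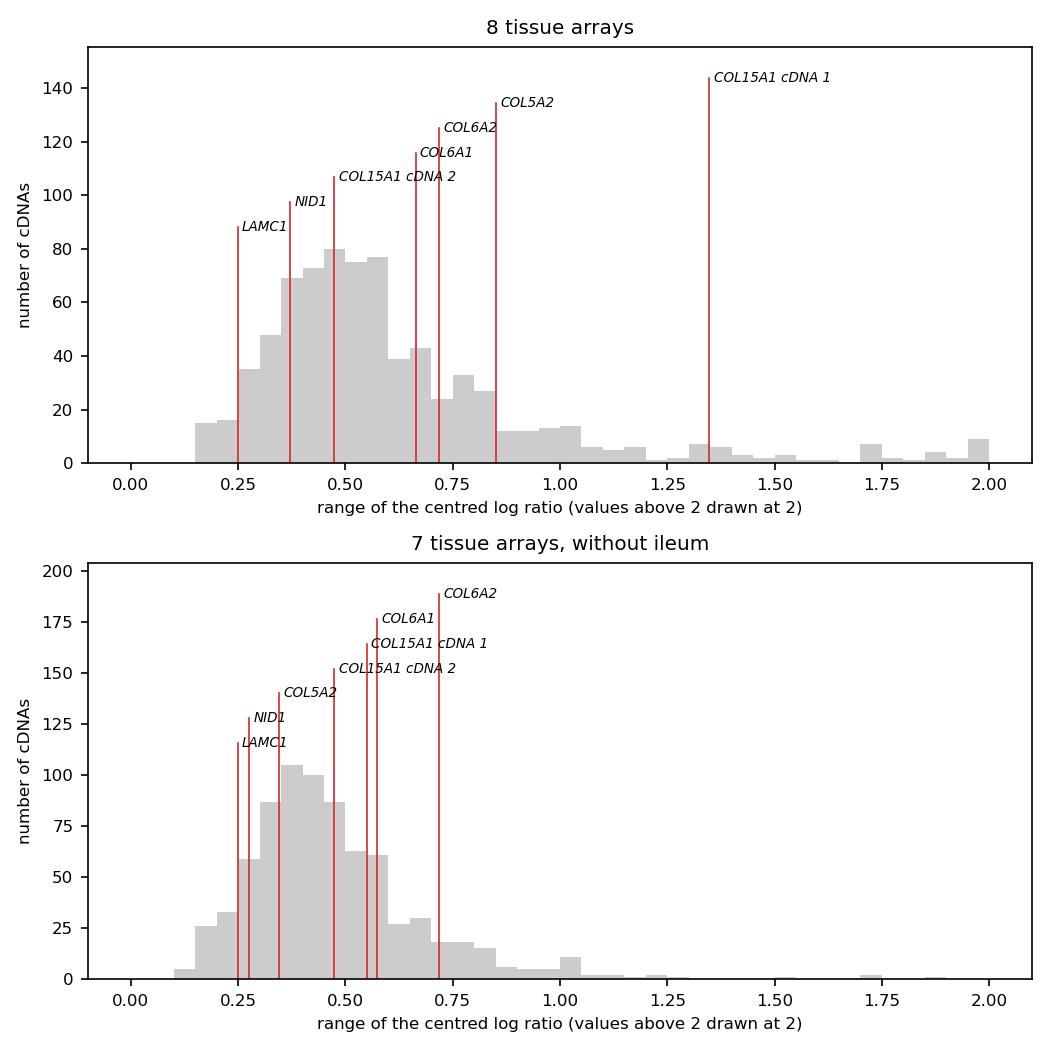
Number of cDNAs (vertical axis) by the range of their centred log ratio over the 8 tissue arrays (top) and over 7 of them without ileum (bottom), with the 7 cDNAs as red lines whose heights have no meaning. COL15A1 cDNA 1 moves from 1.35 to 0.55 and COL5A2 from 0.85 to 0.35 when ileum is left out, while COL6A2 stays at 0.72.

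Among the 21 pairs of cDNAs the clearest pattern was an opposite course of COL6A2 and LAMC1. Their r was -0.87 and their rho -0.86, and r was -0.93 without ileum. Their signs were opposite on 8 of 8 tissue arrays, but LAMC1 in ileum and liver was closer to 0 than its spot spread, and on the deposited values without centring, or with exact 0 kept, it was 7 of 8. COL15A1 cDNA 1 had the opposite sign to COL6A2 on 8 of 8 arrays, with r at -0.40 over all of them and -0.86 without ileum. With LAMC1 its r was 0.00095 over all arrays and 0.72 without ileum. COL5A2 and COL15A1 cDNA 1 had r at 0.77 with ileum and -0.03 without it, whereas COL5A2 and COL15A1 cDNA 2 had r at 0.50 with ileum and 0.84 without it. These correlations are over 8 points (7 without ileum) that share the RNA of the cell line in 1 channel, and they describe the arrays only. The r of COL6A2 and LAMC1 over the 8 arrays was the largest in size of the 21 pairs, so it is extreme by selection.

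**Figure D3:**
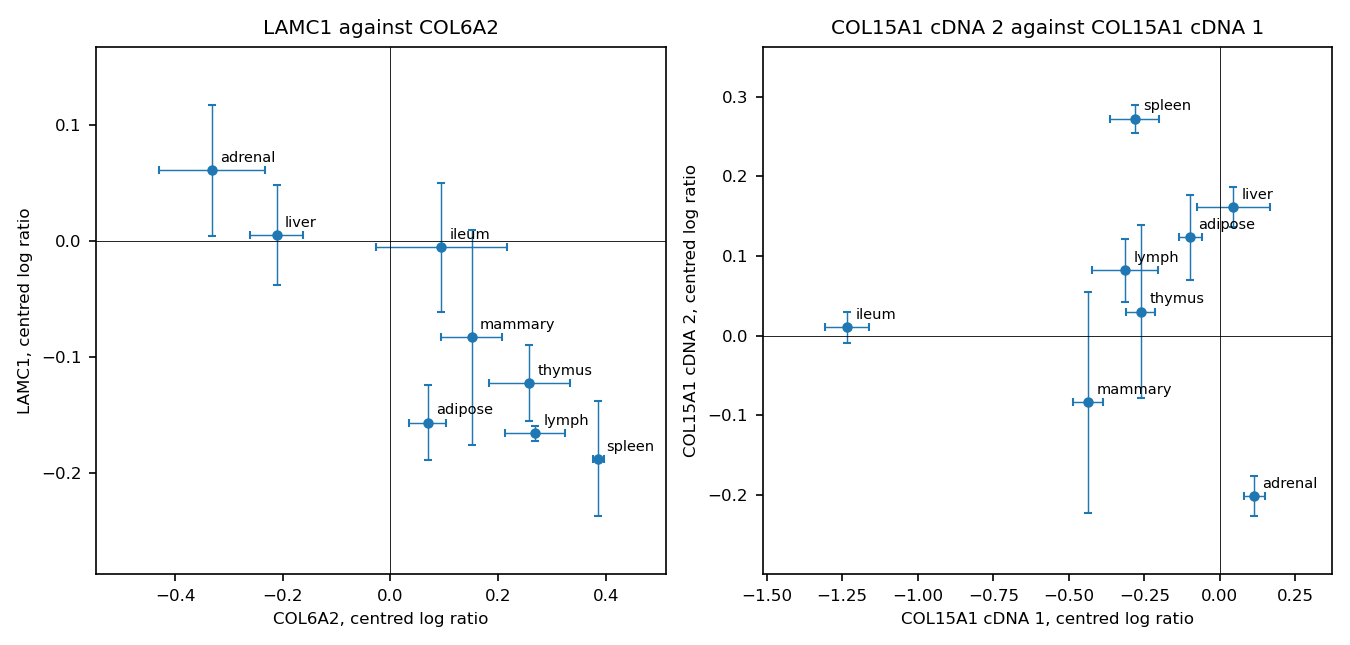
Centred log ratios of LAMC1 against COL6A2 (left) and of COL15A1 cDNA 2 against COL15A1 cDNA 1 (right) on the 8 tissue arrays, with the SD over 3 spots as bars. LAMC1 is lower where COL6A2 is higher, with LAMC1 near 0 in ileum and liver, and only COL15A1 cDNA 1 sets ileum apart.

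The genes most like each of the 6 over the 8 tissue arrays, by Pearson r among 689 other genes, were as follows. For COL15A1, as the mean of its cDNAs, they were POSTN (r = 0.94), the endoplasmic reticulum chaperone HSP90B1 (0.92) and FILIP1L (0.91). In ileum that mean described neither cDNA. For COL5A2 they were the disulfide isomerase PDIA3 (0.97), the translation factor subunit EIF2B3 (0.92) and the chaperonin subunit CCT4 (0.91). For COL6A1 they were MAGED1 (0.94), the desaturase SCD (0.91) and the phosphoglucomutase PGM1 (0.89). For COL6A2 they were SLF2 (0.96), the Fc receptor FCGR2B (0.94) and the polarity protein DLG5 (0.93). For LAMC1 they were HNRNPUL1 (0.90), the signal peptidase subunit SPCS2 (0.89) and the actin regulator CAP1 (0.88), and for NID1 the methylmalonyl-CoA mutase MMUT (0.97), the membrane peptidase MME (0.91) and FLCN (0.87). Being the highest of 689 over 8 points, such values are high by selection. Without ileum POSTN was at 0.69 with COL15A1, HSP90B1 at 0.58, EIF2B3 at 0.64 and CCT4 at 0.63 with COL5A2, while PDIA3 kept 0.90 and MMUT 0.95. Of these 18 genes 4 passed on the lactating arrays by limma, all on the casein side. Over all genes 14.8% passed, and 11.3% did so on the casein side. The 4 were PDIA3 (mean 0.94), CCT4 (0.84) and EIF2B3 (0.58), named for COL5A2, and SLF2 (0.72), named for COL6A2. HSP90B1 lay at -0.59 and -0.29 on the lactating arrays and did not pass.

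In the lactating gland the 6 genes did not move as a group. The fibril collagen gene COL5A2 was positive on both arrays and passed the test, both cDNAs of COL15A1 lay on that side without passing, and the type VI collagen genes, LAMC1 and NID1 did not pass and had different signs on the 2 arrays. Each gene's mean over the 2 arrays was tested against 0 with limma over 697 genes, two-sided, with Benjamini-Hochberg adjustment at 0.05. 1 of the 6 genes passed, beside 14.8% of all genes, which split into 11.3% toward the caseins and 3.44% away from them. The median of the 6 genes was -0.07, against -0.00027 over all genes.

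COL5A2 lay at 0.53 ± 0.06 (SD, 3 spots) on array 1 and 0.61 ± 0.05 on array 2, and at 0.06 and 0.16 on the cell line against itself. The spots of the lactating arrays, 0.47 to 0.64, did not overlap those of the reference against reference arrays. The mean was 0.57 ± 0.06 (SD, n = 2) with a 95% interval from 0.25 to 0.89 (limma, adjusted p = 0.0185). It was the only one of the 6 genes whose ratios exceeded both reference against reference values in size on both lactating arrays, beside 29.5% of all genes. The call was lost in 8 of 11 other settings, with the mean between 0.42 and 0.61. The adjusted p (limma) was 0.27 with the reference against reference arrays subtracted. In the settings without 1 lactating array the spread came from the reference against reference arrays only. Lactating RNA was in channel 1 on both arrays, and a dye effect cannot be told apart from the stage.

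**Figure D4:**
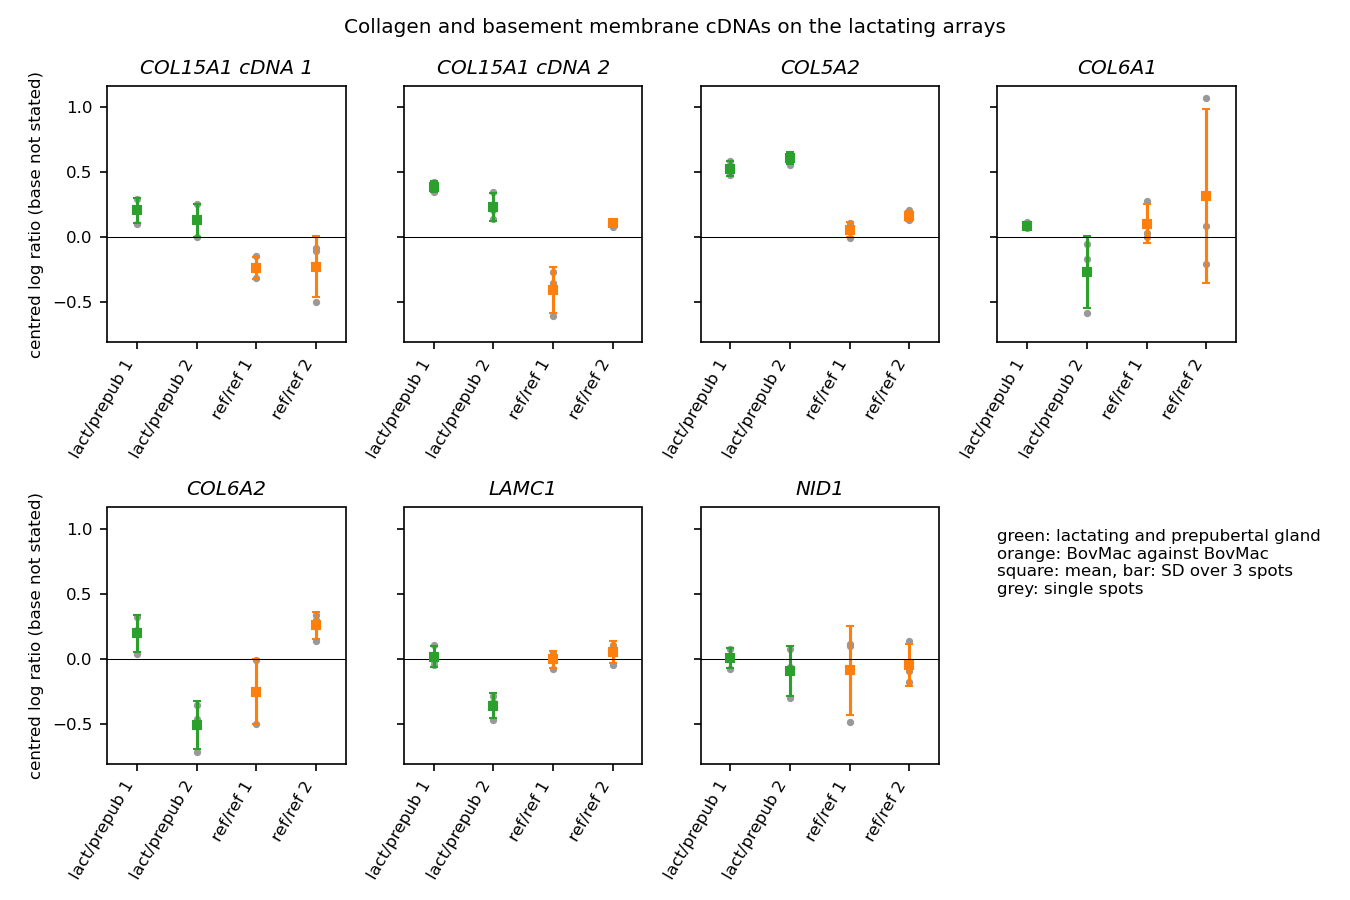
Centred log ratios (vertical axis, base not stated) of the 7 cDNAs on the 2 arrays of lactating against prepubertal mammary gland (green) and the 2 arrays of BovMac against itself (orange), with single spots in grey, means as squares and the SD over 3 spots as bars. COL5A2 has the highest ratios, 0.53 and 0.61, and the spots of COL6A2 and LAMC1 differ between the lactating arrays.

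COL15A1 was positive with both cDNAs on both arrays. Its cDNA 1 lay at 0.21 ± 0.10 on array 1 and 0.13 ± 0.13 on array 2, against -0.24 and -0.23 on the cell line against itself. Its cDNA 2 lay at 0.39 ± 0.04 and 0.23 ± 0.11, against -0.41 and 0.11. For both cDNAs every lactating spot was above every reference against reference spot, the closest being 0.14 and 0.12 for cDNA 2. The gene's mean was 0.24 ± 0.08 (SD, n = 2), with a 95% interval from -0.08 to 0.56 (limma, adjusted p = 0.334). It was 0.43 with the reference against reference arrays subtracted, 0.56 with array 1 of them alone subtracted and 0.14 on the deposited values, and passed in none of these settings.

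The other 4 genes were near 0 or positive on array 1 and negative on array 2. COL6A2 lay at 0.19 ± 0.14 on array 1 and -0.51 ± 0.18 on array 2, with a mean of -0.16 ± 0.50 (SD, n = 2; adjusted p = 0.62, limma). Its spots ran from 0.04 to 0.32 on array 1 and from -0.72 to -0.36 on array 2, so they did not overlap. LAMC1 lay at 0.02 ± 0.08 and -0.36 ± 0.10, with a mean of -0.17 ± 0.27 (adjusted p = 0.525, limma), and its spots did not overlap either. COL6A1 lay at 0.09 ± 0.02 and -0.27 ± 0.28, with a mean of -0.09 ± 0.25 (adjusted p = 0.769, limma), and NID1 at 0.0047 ± 0.08 and -0.10 ± 0.19, with a mean of -0.05 ± 0.07 (adjusted p = 0.876, limma). 2 of the 6 genes had the same sign on both arrays, beside 70.9% of all genes, and 5 of 6 lay lower on array 2 than on array 1, beside 47.1%. The 95% intervals of these 4 means reached from -0.54 to 0.28, so differences of that size were not excluded.

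The gap between the lactating arrays was widest for COL6A2, at -0.71 for array 2 minus array 1, and 4.02% of 697 genes had a more negative gap. LAMC1 had a gap of -0.38 and COL6A1 of -0.35, NID1 of -0.10, COL15A1 of -0.12 and COL5A2 of 0.08. The smooth muscle genes ACTG2 and MYH11, which myoepithelial cells of the gland also express, lay at 0.05 and 0.09 on array 1 and at -0.61 and -0.58 on array 2. The arrays differed in the prepubertal heifer, and with 1 array for each heifer this difference has no replicate check. The part of smooth muscle or myoepithelial content in the gap was not tested.

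**Figure D5:**
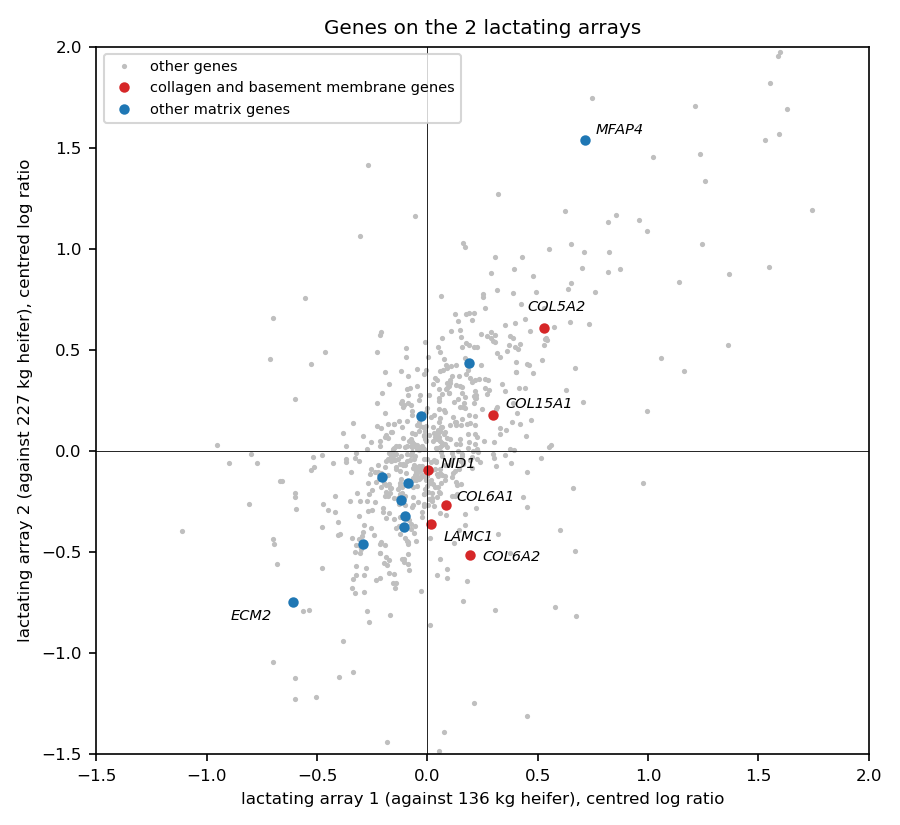
Centred log ratio of each gene on lactating array 1 (horizontal axis, prepubertal heifer of 136 kg) and lactating array 2 (vertical axis, prepubertal heifer of 227 kg), with the 6 genes in red and the other measured matrix genes in blue; 16 genes lie outside the axes. COL5A2 and COL15A1 are positive on both arrays, and COL6A2, LAMC1, COL6A1 and NID1 lie below 0 on array 2 only.

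Of 110 other genes of collagens, basement membranes, matrix glycoproteins, collagen-processing enzymes and matrix receptors that were listed, 10 were measured, and none of these was a further collagen, laminin or processing enzyme. 2 of the 10 passed on the lactating arrays, 1 on each side, beside 14.8% of all genes. The median of the 10 was -0.17. MFAP4, a protein of elastic microfibrils, lay at 0.71 and 1.54 (mean 1.13 ± 0.58, adjusted p = 0.000496, limma), but also at -0.81 on reference against reference array 2. ECM2, a matrix glycoprotein, lay at -0.61 and -0.75 (mean -0.68 ± 0.10, adjusted p = 0.00631, limma). Both calls were lost in 6 of 11 other settings. Those that did not pass included tenascin gene TNC at -0.38 ± 0.12, the laminin-binding integrin chain gene ITGA6 at 0.31 ± 0.17, MFAP5 at -0.24 ± 0.19, POSTN at -0.21 ± 0.15 and the proteoglycan genes VCAN at -0.18 ± 0.09 and BGN at -0.17 ± 0.06. 7 of the 8 glycoproteins and proteoglycans lay on the opposite side, beside 4 of the 6 collagen and basement membrane genes and 349 of 697 genes.

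On the tissue arrays these 10 genes had 40 positive and 40 negative values, the 6 collagen and basement membrane genes 22 and 26, and all genes 2947 and 2613. The highest means over the 8 arrays among the 10 were those of the elastic fibre gene FBLN5 (0.16), the syndecan gene SDC2 (0.10) and MFAP5 (0.10). The lowest were those of POSTN (-0.31), TNC (-0.16) and MFAP4 (-0.14). In ileum, where COL15A1 cDNA 1 and COL5A2 had their most negative ratios, POSTN lay at -1.52. The next most negative of the 10 was MFAP4 at -0.13.

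The mammary gland itself was measured in 2 further ways. On its own tissue array, the 136 kg prepubertal gland had COL15A1 cDNA 1 at -0.44, COL6A1 at -0.24 and COL5A2 at -0.15, and COL6A2 at 0.15, with LAMC1, NID1 and COL15A1 cDNA 2 between -0.08 and 0.0087. On the array of postpubertal and prepubertal gland, whose direction is unsettled, COL6A1 lay at 0.13 ± 0.18, LAMC1 at 0.16 ± 0.36, NID1 at 0.13 ± 0.26, COL5A2 at -0.07 ± 0.10, COL6A2 at -0.02 ± 0.51 and COL15A1 cDNA 2 at -0.09 ± 0.22. COL15A1 cDNA 1 had 1 spot there and was left out. Each of these 6 values was smaller in size than its own SD over spots, so no difference was detectable for any of them on this array.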

How the data were processed

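Each of 13 arrays has 1 deposited log ratio per spot. Per the file headers and the labels, nothing states the authors' background correction, normalization, dyes, log base or centring, and the base is not given in the sources used here. Deposited array medians lay between -0.0997 and 0.0304. Of the spots, 2538 had 1 gene symbol in the platform annotation, 30 had several and 1320 had none. Gene identifiers were looked up in RefSeq (ARS-UCD2.0), where 703 of 706 genes matched and 0 symbols changed. An exact 0 was treated as no ratio, each array's median was subtracted, the spots of a cDNA were averaged (at least 2 spots, values on at least 7 arrays), and a gene was the mean of its cDNAs. The lactating arrays were tested against 0 with limma 3.58.1 in R 4.3.3 (lmFit, eBayes), which was also tested on simulated data. Python 3.11.15 with numpy 2.4.6 and pandas 2.3.3 did the rest. Tissues, with 1 array each, were not compared by a test, apart from Dixon's criterion for a single far value among the 8, and their small number limits the precision. Nothing in the labels says that the lactating arrays are separate animals, so p-values measure the spread between these 2 arrays, which may be technical, and a spread pooled over genes. Neighbouring tissues were said to differ beyond the spot spread when their gap exceeded the larger of their SDs over spots. Besides the 6 genes, the text names other matrix genes that passed and the 6 next by size in the lactating comparison, those with the 3 highest and 3 lowest means over the tissues, and the 3 genes most correlated with each of the 6; marker genes are named beside the results they accompany. The genes, lists and filters were chosen with earlier results of these data known.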

Additional observations from a re-analysis of the deposited data

Results flagged for a closer look

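2 of the 7 cDNAs had 1 tissue far from the rest of the 8 tissue arrays by Dixon's criterion for the gap to the nearest value. COL15A1 cDNA 1 lay at -1.23 in ileum, where the gap took up 0.593 of the whole range, and COL5A2 lay at -0.68 in ileum, also with 0.593, both above the critical value for 8 values. Both flags come from the ileum array, so they are not independent of each other, and the criterion takes the tissues as if they were samples of 1 group. Chance flags about 1 in 20 groups.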

How the results depend on the processing

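On the lactating arrays 1 of the 6 genes passed (COL5A2), and 3 of 11 other settings gave the same count. It was 0 of 6 with the reference against reference arrays subtracted, with array 1 of them alone subtracted (a setting chosen after seeing the data), with those arrays sharing the spread, on the deposited values, with arrays scaled to the same MAD, with exact 0 kept as a value and without either lactating array (0 to 0). The adjusted p of COL5A2 by limma was 0.27 with the reference against reference arrays subtracted and 0.0615 with them sharing the spread. It was 0.114 on the deposited values, 0.0907 with MAD scaling and 0.106 with exact 0 kept. With array 1 of the reference pair alone subtracted the COL5A2 mean was 0.51. Without 1 lactating array the spread came from the reference against reference arrays only. COL5A2 then lay at 0.61 without lactating array 1 and 0.53 without array 2. The count over all genes, 103, was 13, 47 and 36 in the first 3 of these settings, 30 with MAD scaling, 32 with exact 0 kept and 22 to 48 without 1 array. Of the 103 calls 76.7% were on the casein side, against 61.9% of 84 on the deposited values, which shift the median gene by -0.10, 96.7% with MAD scaling and 100% with exact 0 kept or with both reference against reference arrays subtracted. The count over the 10 other matrix genes, 2, was 0 with the reference against reference arrays subtracted and 0 with them sharing the spread. It was also 0 with MAD scaling and 0 with exact 0 kept. Signs turned only for genes that did not pass: NID1 was at 0.023 with the reference against reference arrays subtracted and 0.045 with array 1 alone, COL6A2 at 0.095 with array 1 alone. Without 1 lactating array COL6A1 ranged from -0.27 to 0.085, COL6A2 from -0.51 to 0.19, LAMC1 from -0.36 to 0.016 and NID1 from -0.10 to 0.0047. Over the tissues the range of NID1 was 0.28 without ileum, and MAD scaling gave 1.06 for COL15A1 cDNA 1, 0.61 for its cDNA 2 and 0.93 for COL6A2. The count of tissue arrays with opposite signs of COL15A1 cDNA 1 and LAMC1, 0, was 1 on the deposited values and 1 with exact 0 kept (settings chosen for this count after seeing the data). The count of genes positive on at least 7 of 8 tissue arrays was 0 in all 7 settings tried. The cause of these changes was not tested. Lactating and prepubertal RNA shared each lactating array, so the test of the ratio was already a comparison within arrays. The labels give no further pairing.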
